A study of Mus musculus with 6 samples.

Results

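*Slpi* and 9 genes of neutrophils were followed through 6 mouse livers to see whether *Slpi* moved with the neutrophil genes or apart from them. The 9 genes were *S100a8*, *S100a9*, *Ngp*, *Camp*, *Ltf*, *Elane*, *Retnlg*, *Mmp9* and *Csf3r*, and all 10 were found on the arrays, out of 19938 genes with a name. A gene was taken where the annotation gave a probe set its symbol and no other, and each of the 10 had 1 such probe set. *Slpi* was chosen from its measured values, because it differed between the groups on these same arrays, so its group difference is described here and not tested. The livers came from fasted female mice of the FVB/N background. Mutant mice, called Lkb1KOlivad, carried Lkb1 fl/fl and TTR-CreTam, a tamoxifen-inducible Cre driven by the transthyretin promoter of hepatocytes, and there were 3 of them (B253, B304 and B305). The 3 controls (B256, B267 and B302) were littermates that carried Lkb1 fl/fl without Cre, and tamoxifen was given to adult mice. The deletion is therefore one of hepatocytes, while neutrophils and the other cells of these livers were not targeted. The labels give sex and genotype but not age. RNA of 1 whole liver per mouse was hybridized to 1 array.

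Neutrophils are short-lived white blood cells that are made in the bone marrow and pass through the liver with the blood. They carry granules filled in a fixed order as they mature: azurophil granules with elastase and myeloperoxidase come first, specific granules with lactoferrin and cathelicidin follow, and gelatinase granules with Mmp9 come last, so the transcripts of early granule proteins belong to precursors and are low in mature cells. *Slpi* encodes the secretory leukocyte peptidase inhibitor, a small secreted protein of the WAP family that blocks neutrophil elastase and cathepsin G. It is made by epithelial cells, by macrophages and by neutrophils themselves, and its transcript alone does not tell which cell it came from. In RNA of whole liver, fewer cells of a type and less RNA per cell cannot be told apart.

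The promoters of *Slpi* and of the 4 neutrophil genes that stood above background are shown because genes of neutrophil granules are bound by C/EBP factors, and the stretches show where *Slpi* has the same letters. They are RefSeq sequences of build GRCm38.p6, each the 250 bases before the start of the gene, from 5′ to 3′ on the strand of the gene. Capitals mark matches to the C/EBP consensus TTNNGNAA on either strand.
Slpi: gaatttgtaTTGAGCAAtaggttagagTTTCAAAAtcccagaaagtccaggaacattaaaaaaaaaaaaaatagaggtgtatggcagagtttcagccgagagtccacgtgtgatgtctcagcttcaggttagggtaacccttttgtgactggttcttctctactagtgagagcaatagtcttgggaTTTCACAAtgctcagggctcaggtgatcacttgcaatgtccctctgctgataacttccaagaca
S100a8: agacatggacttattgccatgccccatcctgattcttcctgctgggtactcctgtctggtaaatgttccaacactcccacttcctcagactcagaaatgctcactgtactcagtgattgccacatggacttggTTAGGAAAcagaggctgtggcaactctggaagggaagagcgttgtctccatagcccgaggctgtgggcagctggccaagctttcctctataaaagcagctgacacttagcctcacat
S100a9: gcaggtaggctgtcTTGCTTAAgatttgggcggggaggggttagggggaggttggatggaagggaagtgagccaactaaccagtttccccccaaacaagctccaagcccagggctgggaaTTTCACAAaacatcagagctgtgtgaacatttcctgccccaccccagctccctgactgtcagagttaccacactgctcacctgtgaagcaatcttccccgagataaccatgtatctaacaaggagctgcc
Ngp: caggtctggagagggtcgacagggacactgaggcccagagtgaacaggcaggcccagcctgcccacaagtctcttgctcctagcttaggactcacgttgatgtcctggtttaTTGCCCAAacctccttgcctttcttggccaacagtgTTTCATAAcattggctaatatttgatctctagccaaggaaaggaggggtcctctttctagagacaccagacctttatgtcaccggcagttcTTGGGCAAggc
Retnlg: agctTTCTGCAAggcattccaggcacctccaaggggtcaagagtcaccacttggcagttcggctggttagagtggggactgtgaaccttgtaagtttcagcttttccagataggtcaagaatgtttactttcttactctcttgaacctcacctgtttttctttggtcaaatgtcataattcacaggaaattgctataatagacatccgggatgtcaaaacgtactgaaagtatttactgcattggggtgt
They lie at chr2:164356508-164356757 (minus strand) for *Slpi*, chr3:90668821-90669070 (plus strand) for *S100a8*, chr3:90695722-90695971 (minus strand) for *S100a9*, chr9:110419558-110419807 (plus strand) for *Ngp* and chr16:48872358-48872607 (plus strand) for *Retnlg*. *S100a8* and *S100a9* are neighbours on chromosome 3. *Slpi* and *S100a9* hold the same run of letters, TTTCACAA, on the same strand, 64 to 57 bases before the start of *Slpi* and 130 to 123 bases before that of *S100a9*, and 1.03% of 32851 promoters of this length hold it. *Slpi* has 2 further matches, TTGAGCAA from 241 to 234 and TTTCAAAA from 223 to 216 bases before the start. *Ngp* and *Ltf* share TTGGGCAA, which 0.709% of promoters hold. In all, 6 of the 9 members with a promoter sequence held the C/EBP consensus (*Slpi*, *S100a8*, *S100a9*, *Ngp*, *Ltf* and *Retnlg*), against 36.8% of all promoters. The PU.1 letters GAGGAAG were in 3 of 9 (*S100a8*, *Elane* and *Csf3r*) against 10.6% of all. The STAT letters TTCNNNGAA (7.02% of all) and the AP-1 letters TGANTCA (6.75% of all) were in 0 of 9, and TATAAA (12.4% of all) in 1, *S100a8*. Motifs were searched on both strands, and the matches listed did not overlap. They describe these windows and do not show that a factor binds there.

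*Stk11*, the gene of Lkb1, checked the labels: its log2 signal was 6.42 to 6.52 in the mutant livers and 7.96 to 8.24 in the controls. No other gene passed the threshold of 0.05 on the adjusted p in limma, so 1 of 19938 was called, or 0.00502%. Its log2 fold change was -1.64 (adjusted p = 0.00705, limma), and it was -1.71 (adjusted p = 0.0168) without B302. Leaving out any of the other 5 mice gave -1.66 to -1.57 and an adjusted p of 0.0501 to 0.139. A further reference is the background: olfactory and vomeronasal receptor genes, which liver should not use, had a median log2 signal of 3.24 and a 95th percentile of 4.78, and a gene with a mean over the 6 arrays above that percentile was taken to be above background. Array medians lay between 5.03 and 5.08, and the mean Pearson r of an array with the others was 0.974 for B302 and 0.979 to 0.981 for the other 5. Genes of hepatocytes were bright, with a mean log2 signal over 7 genes of 12.2 to 12.4 in the mutants and 12.2 to 12.5 in the controls. Signals are compared here between livers for the same gene, never between genes, since probe sets differ in brightness. Where 3 values follow each other, they stand in the order B253, B304 and B305 for the mutants and B256, B267 and B302 for the controls.

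*Slpi* was above the background limit of 4.78 in every liver, and nearest to it in controls B256 and B302. Its log2 signal was 6.62 in B253, 7.04 in B304 and 6.79 in B305 among the mutants, and 5.24 in B256, 6.34 in B267 and 5.52 in B302 among the controls. The lowest mutant lay above the highest control, but control B267 was much nearer to the mutants than to the other controls. The group means were 6.82 ± 0.21 and 5.70 ± 0.57 (SD, n = 3 each), a difference of 1.12 (standard error 0.26, 95% interval 0.53 to 1.71), or 2.18-fold. These values chose the gene, and nothing is read from their separation: 3.46% of all genes had every mutant above every control, and 3.7% had every mutant below. Without control B267 the difference was 1.44, and without control B256, the lowest liver, it was 0.89.

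**Figure D1:**
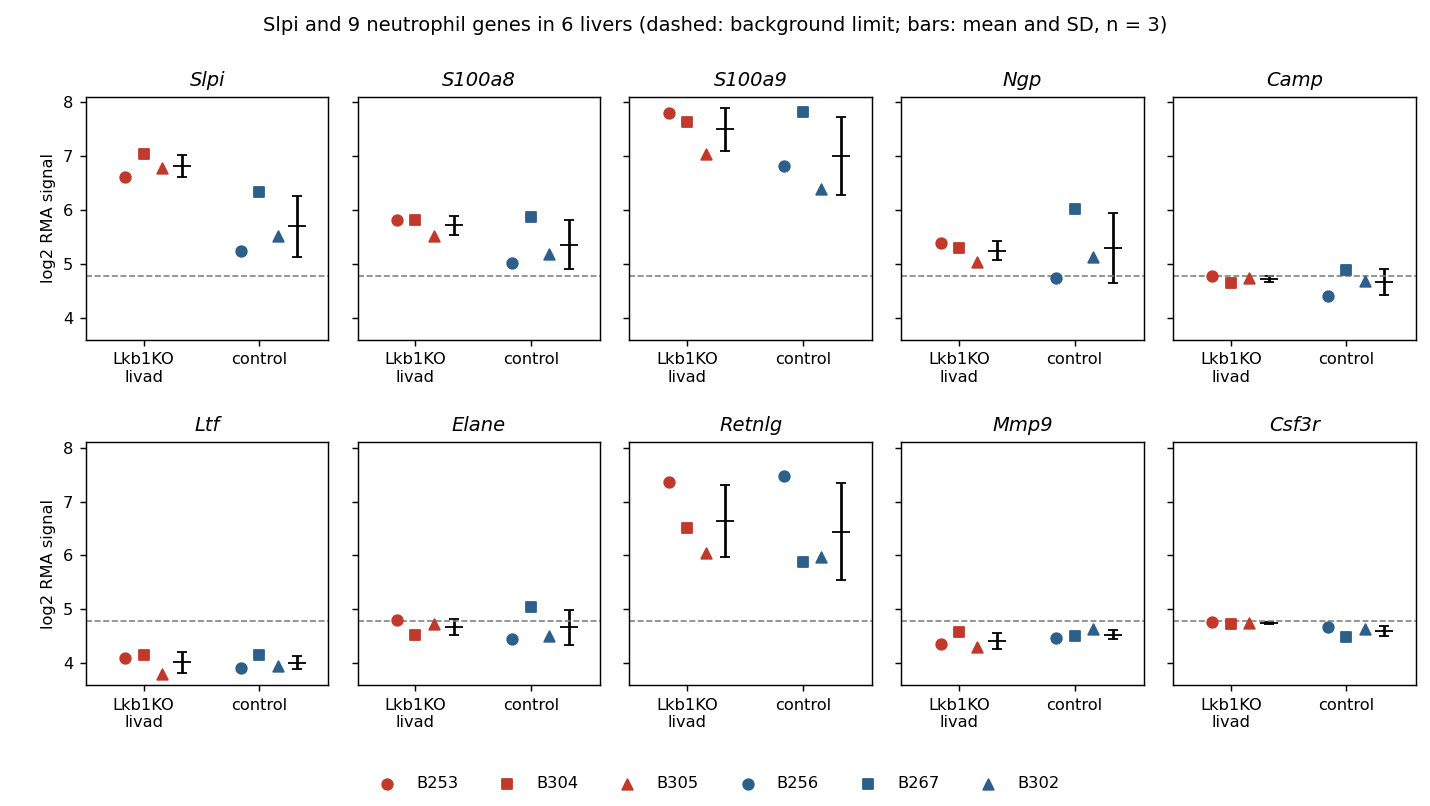
Log2 RMA signal (vertical axes) of *Slpi* and the 9 neutrophil genes in each liver, red for Lkb1KOlivad and blue for control, with 1 marker shape per mouse of a group, the mean and SD (n = 3) beside the points, and a dashed line at the background limit of 4.78. *Slpi* is higher in every mutant than in every control, the groups of *S100a8*, *S100a9*, *Ngp* and *Retnlg* overlap, and *Camp*, *Ltf*, *Elane*, *Mmp9* and *Csf3r* have means under the line, which *Elane* passes in 2 livers and *Camp* in 1.

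Of the 9 neutrophil genes, 0 passed the test over all genes (limma, adjusted p = 0.9997 for each of the 9), and 0 had an unadjusted p under 0.05, against 3.03% of all genes. The methods' t-test also gave 0 of the 9 at an unadjusted p under 0.05. Their log2 fold changes ran from -0.12 to 0.49 with a median of 0.06, beside a median of 0.01 over all genes. For the 4 of the 9 above background (*S100a8*, *S100a9*, *Ngp* and *Retnlg*) the median was 0.28, and it was 0.01 over all genes above background. The exact permutation test of 3 against 3 mice cannot go below p = 0.1, and for the 9 genes it gave p = 0.1 to p = 0.9 (two-sided, exact). Their own intervals were wide, so changes of the size seen for *Slpi* lay inside the interval of *S100a9* and of *Retnlg* and outside that of the other 7.

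*S100a8* and *S100a9* encode the subunits of calprotectin, the most abundant protein of the neutrophil cytoplasm. *S100a9* had log2 signals of 7.81, 7.64 and 7.04 in the mutants and of 6.82, 7.82 and 6.396 in the controls. The highest of the 6 livers was control B267, level with mutant B253, and the groups overlapped. The difference was 0.49 (standard error 0.34, 95% interval -0.29 to 1.27). *S100a8* had 5.83, 5.82 and 5.52 in the mutants and 5.02, 5.88 and 5.19 in the controls, again with B267 at the top. Its difference was 0.36 (standard error 0.22, 95% interval -0.14 to 0.86). Over the 6 livers the pair moved together, with a Pearson r of 0.92, and in both genes the other 2 controls lay below every mutant. Leaving out 1 liver moved the difference of *S100a8* between 0.19 (without B256) and 0.62 (without B267), and that of *S100a9* between 0.18 (without B302) and 0.89 (without B267), and neither passed the test in any of these fits.

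*Ngp*, the neutrophilic granule protein of specific granules, gave a different order. Its log2 signals were 5.39, 5.30 and 5.05 in the mutants and 4.73, 6.02 and 5.14 in the controls. Control B267 stood well above the next liver, control B256 was lowest and under the background limit, and the mutants filled the middle, with a difference of -0.05 (standard error 0.28, 95% interval -0.70 to 0.60) that went from -0.33 without B256 to 0.31 without B267. *Camp*, the precursor of cathelicidin, *Ltf*, which encodes lactoferrin, and *Elane*, which encodes neutrophil elastase, the protease that Slpi inhibits, were not above background. *Elane* ran from 4.52 to 4.80 in the mutants and from 4.44 to 5.05 in the controls. *Camp* ran from 4.66 to 4.77 and from 4.42 to 4.89, and *Ltf* from 3.80 to 4.16 and from 3.92 to 4.15. Differences were 0.02 for *Elane*, 0.06 for *Camp* and 0.01 for *Ltf*. B267 was the highest liver in *Elane* and *Camp*, as it was in *Ngp*, while the *Ltf* values spanned only 0.36 over all livers.

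*Retnlg*, a resistin-like gene of mature neutrophils, was ordered unlike the calprotectin and granule genes. It had 7.37, 6.51 and 6.04 in the mutants and 7.48, 5.87 and 5.98 in the controls. The highest liver was B256, which had the least *Slpi*, and the lowest was B267, which had the most *Ngp*. The difference between groups was 0.20 (standard error 0.45, 95% interval -0.83 to 1.23), and leaving out 1 liver moved it from -0.17 (without B253) to 0.72 (without B256). *Mmp9*, which encodes the gelatinase of late granules, and *Csf3r*, the receptor of granulocyte colony-stimulating factor, were not above background. *Mmp9* ran from 4.30 to 4.58 in the mutants and from 4.47 to 4.63 in the controls. *Csf3r* ran from 4.72 to 4.77 in the mutants and from 4.48 to 4.67 in the controls, the 1 of the 9 whose groups did not overlap, where 3.46% of all genes lay so. That gap, between 4.67 and 4.72, was small and the signal is within that of receptor genes liver should lack.

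The likeness of *Slpi* to each member was described over the 6 livers, which share the group difference of *Slpi*, and again over deviations from each group's mean, which do not. Pearson r with *Slpi* was 0.85 for *S100a8*, 0.71 for *S100a9*, 0.57 for *Camp*, 0.42 for *Ngp* and 0.41 for *Elane*. It was 0.36 for *Csf3r*, 0.35 for *Ltf*, -0.22 for *Retnlg* and -0.34 for *Mmp9*. Spearman's rho was lower for the calprotectin genes, at 0.49 for *S100a8* and 0.43 for *S100a9*. With the 2 livers farthest from the median of the neutrophil gene left out, r was -0.35 for *S100a8* and -0.40 for *S100a9*. These livers were B256 and B302, the controls with low *Slpi*, so the relation of *Slpi* to this pair rested on them. For the other genes, each without its own 2 farthest livers, r was 0.93 for *Ltf*, 0.85 for *Csf3r*, 0.65 for *Retnlg* and 0.63 for *Elane*. It was 0.30 for *Ngp*, 0.26 for *Mmp9* and 0.08 for *Camp*. Over deviations pooled from both groups, r was 0.89 for *S100a8*, 0.89 for *Ngp*, 0.77 for *Camp*, 0.71 for *Elane* and 0.69 for *S100a9*. It was 0.59 for *Ltf*, 0.21 for *Mmp9*, -0.67 for *Retnlg* and -0.99 for *Csf3r*. The controls weigh most in these values, since the SD of *Slpi* was 0.57 in the controls and 0.21 in the mutants. Among the mutants, B253 had the least *Slpi* (6.62) but the most *S100a8* (5.83), *S100a9* (7.81), *Ngp* (5.39) and *Retnlg* (7.37). Control B267 exceeded control B256 by 1.10 in *Slpi*, 0.87 in *S100a8* and 1.28 in *Ngp*, while its *Retnlg* was lower. These are 9 relations over 6 points, with no test.

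**Figure D2:**
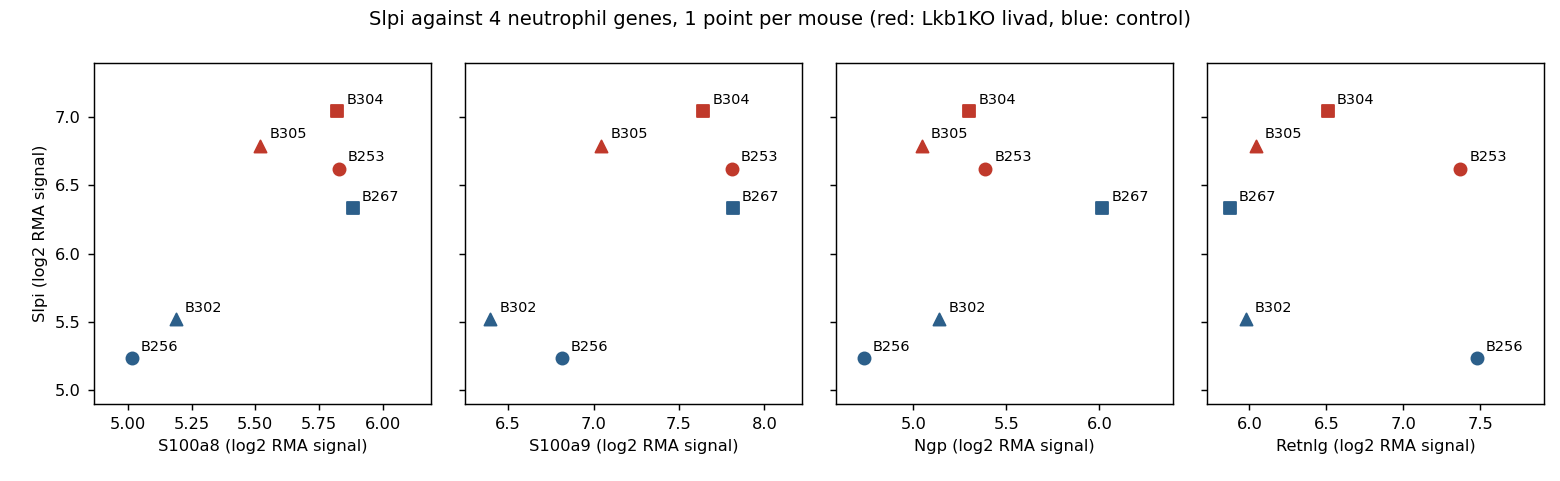
*Slpi* (vertical axis) against *S100a8*, *S100a9*, *Ngp* and *Retnlg* (horizontal axes), all in log2 RMA signal, with 1 point per mouse, red for Lkb1KOlivad and blue for control. Control B267 is level with or above the mutants in *S100a8*, *S100a9* and *Ngp* but lies below all 3 mutants in *Slpi*, and control B256 has the most *Retnlg* and the least *Slpi*.

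Set against the mean of the 9 genes, *Slpi* had a Pearson r of 0.59 and a Spearman rho of 0.49 over the 6 livers, 0.40 with the 2 farthest livers (B253 and B302) left out and 0.56 over deviations. Among 6126 genes above background with a log2 range of at least 0.5, 91.2% had a lower r with *Slpi* than this mean did. With only the 4 of the 9 above background, r was 0.55. The mean of a longer list of 26 other neutrophil genes, described below, had an r of 0.70 and a rho of 0.54 with *Slpi*. Its r was 0.39 without its 2 farthest livers (B256 and B253) and 0.74 over deviations. Over the 6 livers, 95.8% of the 6126 genes had a lower r than the mean of the 26. The mean of the 9 was 5.47, 5.32 and 5.11 in the mutants and 5.11, 5.41 and 5.01 in the controls. Its groups overlapped, and control B267 was second only to mutant B253. Relative to the mean of the 3 controls, mutant B305 was 1.09 higher in *Slpi* and 0.07 lower in the mean of the 9. Mutant B304 was 1.35 higher in *Slpi* and 0.15 higher in the mean of the 9, and B253 was 0.93 and 0.29 higher. For control B267 the values were 0.64 and 0.23.

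The same was computed for single genes, as the height of *Slpi* over its control mean minus that of the neutrophil gene over its own. Over *S100a8* this excess was 0.46, 0.89 and 0.94 in the mutants and -0.12, 0.12 and 0.00 in the controls. Against *Ngp* it was 0.84, 1.34 and 1.34 in the mutants and 0.10, -0.08 and -0.02 in the controls. In both cases the groups were apart, and B256 and B267, which were 1.10 apart in *Slpi* itself, both lay close to 0. Against *S100a9*, B253 had 0.13, B304 0.71 and B305 1.06, where the controls had -0.27, -0.17 and 0.44, so the groups overlapped through B253 and B302. Against *Retnlg* they also overlapped, with 0.00 to 1.49 in the mutants and -1.50 to 1.21 in the controls. These values contain the difference for which *Slpi* was chosen and are given without a test.

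**Figure D3:**
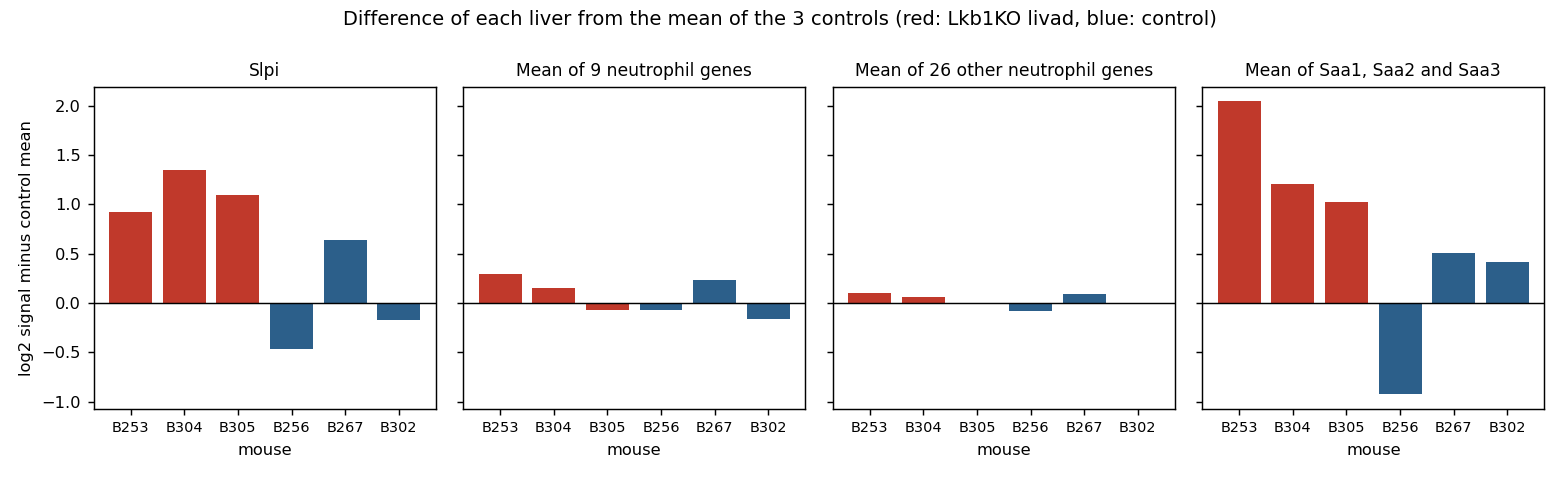
Log2 signal of each liver minus the mean of the 3 controls (vertical axis) for *Slpi*, the mean of the 9 neutrophil genes, the mean of 26 other neutrophil genes and the mean of *Saa1*, *Saa2* and *Saa3*, with 1 bar per mouse, red for Lkb1KOlivad and blue for control. The mutant bars of *Slpi* are 0.93 to 1.35, those of the mean of the 9 are -0.07 to 0.29, and those of the *Saa* genes are 1.03 to 2.04.

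A longer list held 34 neutrophil genes, of which 26 were measured and 14 were above background. It gave 0 genes past the adjusted threshold in either direction and 0 at an unadjusted p under 0.05. Of all genes, 0.00502% and 3.03% did so. None of the 26 had groups apart, where 3.46% of all genes had every mutant above and 3.7% every mutant below. With shares this small, counts of 0 among 26 genes tell little about the list. The median log2 fold change of the 26 was 0.03. Among azurophil granule genes, *Mpo* (myeloperoxidase) was 4.87 to 5.23 in the mutants and 4.54, 6.30 and 4.905 in the controls. *Prtn3*, the proteinase 3 gene beside *Elane*, was 4.896 to 5.95 in the mutants and 4.85, 6.36 and 5.02 in the controls. *Ctsg*, the cathepsin G that Slpi also inhibits, reached 4.87 in B267 and lay between 3.71 and 4.18 in the other 5 livers. Its mean was not above background, nor was that of *Ms4a3*, the other azurophil gene. All 4 azurophil genes measured, 2 of them above background, were highest in B267. Of the whole list of 26, 6 were highest in B267 and 4 in B256, and 14.8% of all genes were highest in B267. Among the 3 controls, 9 of the 26 were highest in B267, against 28.8% of all genes. The mean log2 signal of the azurophil genes was 5.47 in B267 and 4.23 in B256, the highest and the lowest of the 6 livers. *Chil3*, a chitinase-like protein of specific granules and of macrophages, had the same extremes, at 6.33 and 4.36.

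Some genes of mature cells were ordered otherwise. *Mmp8*, the collagenase of specific granules, was 6.06 in B256, 4.10 in B267 and 4.43 to 5.13 in the other 4 livers, so its highest and lowest livers were those of *Retnlg*. *Cxcr2*, the chemokine receptor of circulating neutrophils, was 5.22, 5.26 and 4.26 in the mutants and 4.28 to 4.57 in the controls, a difference of 0.49 (standard error 0.25) in a gene whose mean was not above background. *Il1b*, a cytokine of activated neutrophils and macrophages, was 6.92 in mutant B253 and 5.07 to 5.65 elsewhere, a difference of 0.75 (standard error 0.37). *Ly6g*, the surface protein that defines mouse neutrophils, was under the background limit in every liver (3.35 to 3.69 in the mutants, 3.11 to 3.61 in the controls). *Lcn2*, a granule gene that hepatocytes also use, was bright, at 10.47 to 11.35 in the mutants and 10.60 to 11.01 in the controls, and differed by 0.04. The transcription factors *Cebpe* and *Gfi1* differed by 0.03 and 0.07.

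**Figure D4:**
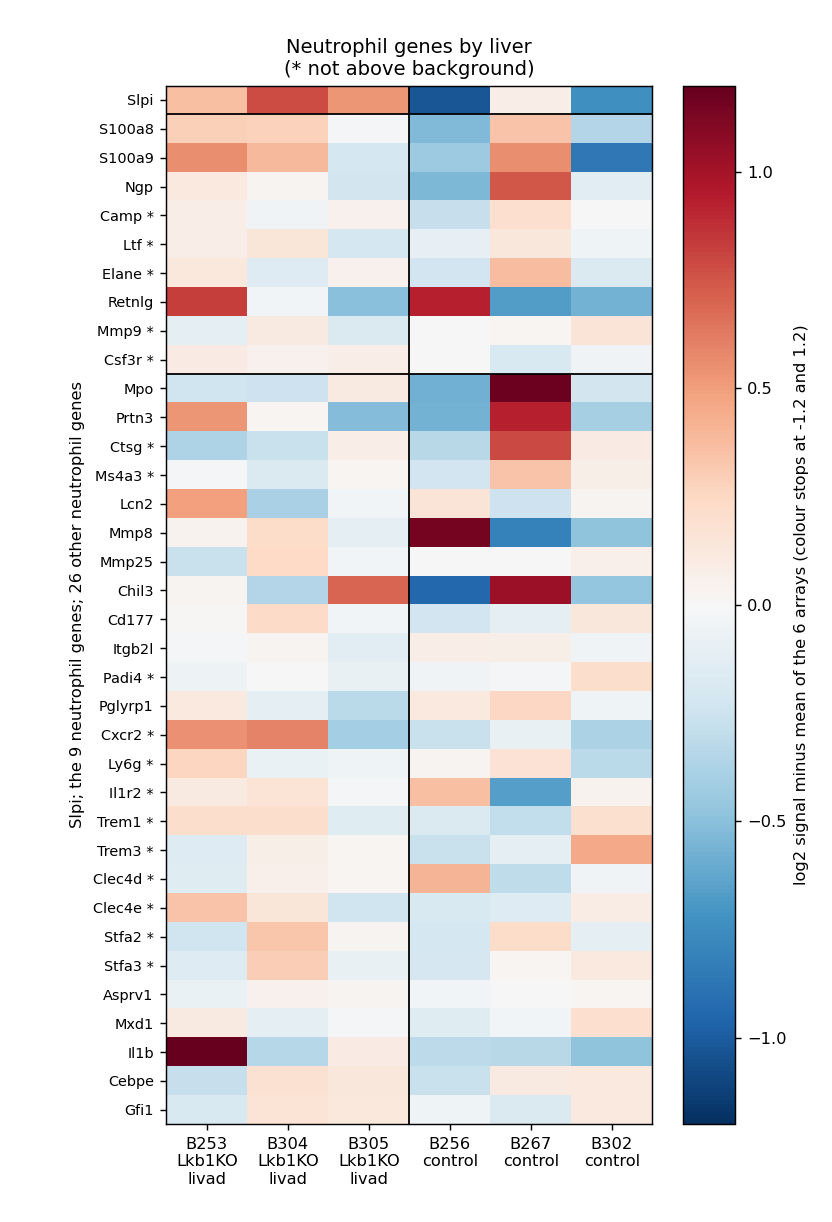
Log2 signal of each gene minus its mean over the 6 livers, as colour (red higher, blue lower, stopping at -1.2 and 1.2), for *Slpi*, the 9 neutrophil genes and 26 others in rows, with the 3 Lkb1KOlivad and the 3 control livers in columns and a star at genes not above background. *Slpi* and *Csf3r* are the 2 rows whose groups do not overlap, control B267 is high in *Ngp*, *Mpo*, *Prtn3* and *Ctsg*, and control B256 is high in *Retnlg* and *Mmp8*.

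Genes that call neutrophils or arm them gave 0 calls, where only 1 of 19938 genes was called at all. Of 5 subunits of the phagocyte oxidase, 0 passed, and all 5 were lower in the mutants on average, as were 9654 of all 19938 genes. *Cybb* had the largest difference (-0.49, standard error 0.21). The smallest were those of *Ncf4* (-0.01, standard error 0.16) and *Cyba* (-0.04, standard error 0.14), and the median was -0.11. Of 12 attractant and adhesion genes 0 passed. *Cxcl1*, a main neutrophil attractant of liver, was 7.74, 7.38 and 6.54 in the mutants and 6.66, 7.20 and 6.71 in the controls, a difference of 0.37 (standard error 0.29). *Il17a*, 1 of the 12, had every mutant below every control, at 4.45 to 4.51 against 4.61 to 4.74, where 3.7% of all genes lay so. It was not above background, and *Il6*, *Tnf*, *Csf3* and *Cxcl2* were not either. *Icam1*, which neutrophils bind on endothelium, differed by -0.02.

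Genes related to *Slpi* by function or by domain, and S100 genes related to the calprotectin pair, followed. Only 1 of all 19938 genes passed, so the counts of 0 passed in this paragraph tell little. Of 7 other inhibitors of leukocyte proteases 0 passed and none had groups apart. Of all genes, 3.46% had every mutant above every control and 3.7% every mutant below. *Serpina1d*, an alpha-1-antitrypsin gene that shares near-identical copies on the genome and is uncertain for that reason, differed by 0.58 (standard error 0.43), *Serpinb1a*, an elastase inhibitor inside neutrophils, by 0.54 (standard error 0.33, not above background), and *Serpina3n* by 0.33 (standard error 0.16). Of 20 WAP domain genes, 8 of them above background, 0 passed and 1, *Wfdc6a*, had every mutant above every control (4.54 to 5.04 against 4.29 to 4.50), where 3.46% of all genes lay so, and it was not above background. Among 13 S100 genes other than the calprotectin pair, 0 passed and 3 had every mutant above every control, *S100a6*, *S100a14* and *S100a16*, or 23.1% of the list against 3.46% of all genes. *S100a14* was not above background. *S100a6*, a calcium-binding protein of epithelial and stromal cells, was 5.74, 5.65 and 5.80 in the mutants and 4.67, 5.16 and 5.20 in the controls, a difference of 0.72 (standard error 0.16, limma adjusted p = 0.9997).

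Acute phase genes, which hepatocytes switch on in inflammation, were looked at because *Slpi* is known as an inflammation-inducible gene in other tissues. Of 27 measured, 0 passed, where 1 of all 19938 genes did. Every mutant lay above every control in 2 of the 27 (7.41%, against 3.46% of all genes). *Saa2*, a serum amyloid A gene, was 10.997, 9.56 and 9.81 in the mutants and 6.50, 8.42 and 8.71 in the controls, a difference of 2.24 (standard error 0.57, limma adjusted p = 0.9997). *Saa1* was 11.76, 10.64 and 10.54 against 8.68, 10.16 and 10.03, a difference of 1.36 (standard error 0.43). *Saa3* differed by 0.67 (standard error 0.25) and overlapped. These 3 copies are alike in sequence and may share probes. *Saa1*, *Saa2* and *Saa3* had r of 0.76, 0.78 and 0.87 with *Slpi* over the 6 livers and of 0.38, 0.31 and 0.72 over deviations. As in *Slpi*, control B256 was lowest in all 3. Of the other 24 genes of the list, 19 were higher and 5 lower in the mutants on average. Of all 19938 genes, 10284 were higher and 9654 lower. Differences of the 24 ran from -0.13 to 0.30, with a median of 0.09. The higher genes included *Apcs* at 0.30, *Lrg1* at 0.26, *Orm1* at 0.17, *Hp* at 0.16, and *Socs3*, a target of cytokine signalling, at 0.01. The lower genes were *Orm3* and *Mt2* at -0.13, *Mt1* at -0.08, *Hamp* at -0.02 and *Crp* at -0.01. The mean log2 signal of the 24 was highest in mutant B253, at 10.77. It was 10.40 in B304 and 10.32 in B305, against 10.45, 10.42 and 10.33 in the controls.

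**Figure D5:**
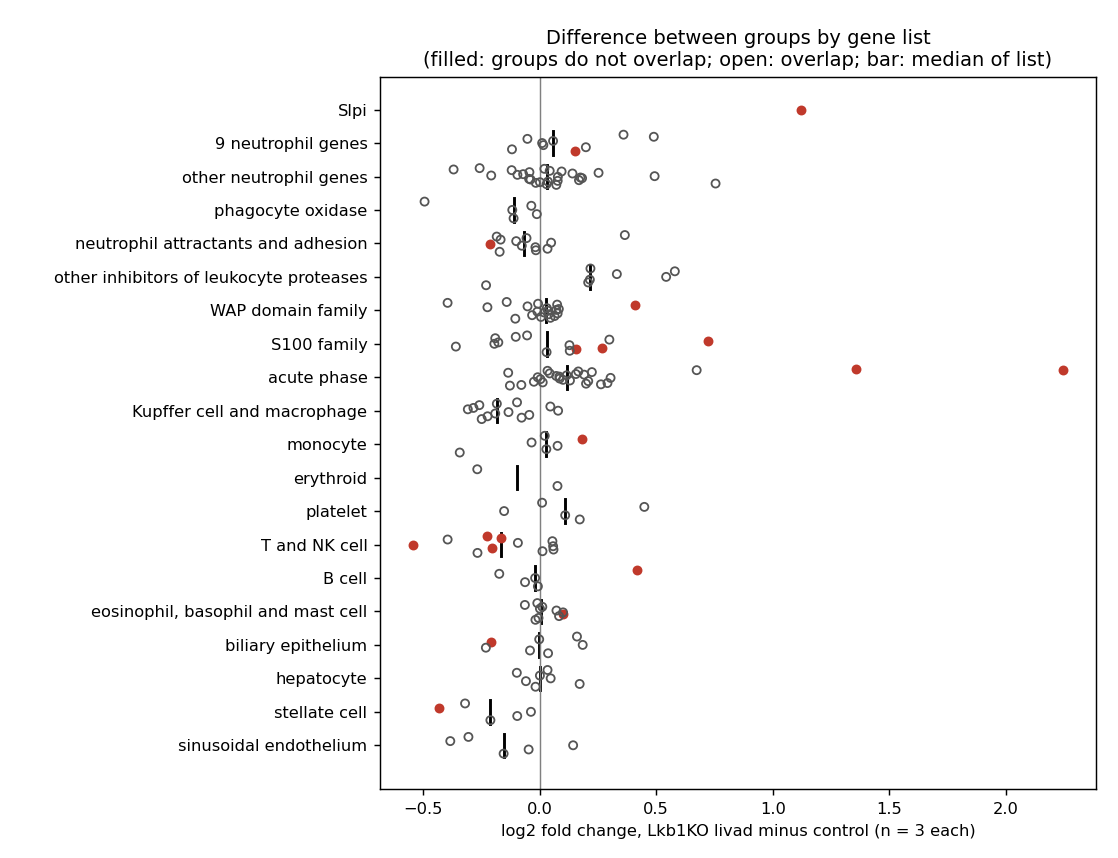
Log2 fold change, Lkb1KOlivad minus control (horizontal axis, n = 3 each), of *Slpi*, the 9 neutrophil genes and each gene of the other lists (rows), filled where the groups do not overlap, open where they do, with a black bar at the median of a list. *Slpi* at 1.12 lies to the right of every neutrophil gene, and *Saa1* at 1.36 and *Saa2* at 2.24 lie beyond it.

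Markers of other cells of liver and blood were read beside these results. Only 1 of all 19938 genes passed, so the counts of 0 passed in this paragraph tell little. Of 13 Kupffer cell and macrophage genes, all above background, 0 passed and all overlapped. Of all genes, 3.46% had every mutant above every control and 3.7% every mutant below. The mean log2 signal of the 13 was 6.85 to 7.26 in the mutants and 6.78 to 7.45 in the controls. *Lyz2*, shared by macrophages and neutrophils, was 8.42, 7.24 and 7.89 against 7.80, 8.57 and 7.41. T and NK cell genes, 4 of 11 above background, had 4 of 11 with every mutant below every control (*Cd3e*, *Cd3d*, *Nkg7* and *Gzmb*), where 3.7% of all genes lay so, of which *Cd3d* and *Gzmb* were not above background, with a mean of 4.29 to 4.51 against 4.46 to 4.66. Platelet genes had a mean of 5.53 to 6.26 against 5.37 to 6.52, and *Ppbp*, a chemokine of platelet granules, was 10.8 in B267 and 7.03 in B256, the same 2 livers that were highest and lowest in *Mpo*. Of the erythroid genes only *Alas2* and *Slc4a1* were measured, and *Alas2* was 6.57 to 6.88 in the mutants and 6.82 to 7.20 in the controls, with an r of -0.92 with *Slpi*. Of 7 biliary genes 0 passed. *Krt19*, a keratin of bile ducts, had an r of 0.84 with *Slpi* over the 6 livers and of 0.79 over deviations. *Epcam*, 1 of the 7, had every mutant below every control (3.93 to 4.33 against 4.33 to 4.36), where 3.7% of all genes lay so. Neither *Krt19* nor *Epcam* was above background. Of 6 monocyte, 5 B cell, 10 eosinophil, basophil and mast cell, 5 stellate cell and 5 endothelial genes 0 passed. *Cx3cr1* of monocytes had every mutant above every control (5.71 to 5.73 against 5.39 to 5.63), as had *Cd79a* of B cells and *Fcer1a* of mast cells, neither of them above background. Of all genes, 3.46% lay so. *Lrat*, a retinol enzyme of stellate cells, had every mutant below every control (5.35 to 5.44 against 5.603 to 6.07), as had 3.7% of all genes. The part of blood content in these values was not tested.

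No gene of the neutrophil lists was among the 5 most like *Slpi*, which tells little. Only genes above background with a log2 range of at least 0.5 were ranked. Of the neutrophil genes, 4 of the 9 and 14 of the 26 were above background. The r over the 6 livers also contains the group difference for which *Slpi* was chosen. *S100a8*, with an r of 0.85, was more like *Slpi* than 98.97% of the ranked genes were. Over the 6 livers the closest of 6126 were *Nfe2l2* (r = 0.99), *Ppp1r3b* (r = 0.97), *Lmo7* (r = 0.96), *Scrn2* (r = 0.96) and *Scnn1a* (r = 0.96). *Nfe2l2*, which encodes the oxidative stress regulator Nrf2, was 8.92, 9.06 and 8.84 in the mutants and 8.004, 8.55 and 8.10 in the controls, and like *Slpi* it had B304 highest and B256 lowest with B267 nearest to the mutants. *Ppp1r3b*, a glycogen-targeting phosphatase subunit of liver, also had B304 highest, with B302 (7.45) and B256 (7.48) at the bottom. Over deviations the closest were *Abitram*, *Ceacam2*, *Rnf152*, *Gm4951* and *Phldb2*, with r of 0.988 to 0.999. The mean of the 9 was closest to *Sult5a1* (r = 0.99), *C4bp* (r = 0.99), *Slc35d2*, *Irgm1* and *Dtymk*. *C4bp*, a complement regulator secreted by liver, was 11.14, 10.88 and 10.44 in the mutants and 10.23, 10.98 and 10.098 in the controls. Over deviations *Cd82*, *C4bp*, *Slc35d2*, *Sult5a1* and *Mpv17l* were nearest to that mean. With 6 points many genes come close: 32 of 6126 had an r above 0.9 with *Slpi*, and 71 of 6123 with the mean of the 9.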

How the data were processed

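Liver RNA of 3 Lkb1KOlivad and 3 control mice was hybridized to Affymetrix mouse gene arrays (1 for each mouse, none left out). The values are the log2 RMA signals deposited by the authors, used without change. Per the labels, NuGEN kits, RMA and Partek were used; the methods name Affymetrix labelling, Expression Console and BRB-ArrayTools, with no version for any of them. RMA subtracts background and makes the distributions of arrays alike, so shifts common to most genes are not visible.

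Of 35556 probe sets, 21789 carried 1 symbol in an annotation of an earlier array generation, and the brightest per gene gave 19938 genes. Groups were compared with limma 3.58.1 (lmFit, eBayes, two-sided) in R 4.3.3. P-values were adjusted by Benjamini-Hochberg over the 19938 genes, and 0.05 was the threshold. The procedure was tested on simulated data. Single genes were also given the exact permutation test. The methods call the controls Cre-negative littermates but do not pair these mice by litter. The limma p-values set the group difference against the spread of livers within groups, which eBayes draws toward that of all genes. The number of arrays limits the precision. No detection calls were used, and a background limit was set at the 95th percentile of 1194 receptor genes.

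The members and the gene lists were chosen with earlier results of these data known. Genes named in the text are the 10 members, members of each list whose groups do not overlap or with the smallest p, and the 5 genes most like *Slpi* and most like the mean of the 9. Others, such as *Lyz2*, *Hp*, *Socs3*, *Ly6g*, *Icam1* and *Krt19*, were named after their values were seen. Alternatives were quantile normalization, median centring, leaving out dim genes, the mean of probe sets, trended and robust variance, array weights, a block for the series of mouse numbers, the methods' t-test and leaving out each mouse. Promoters came from a RefSeq table of GRCm38.p6 with 32851 entries, which held 9 of the 10 members. Figures were drawn with matplotlib 3.10.9.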

Additional observations from a re-analysis of the deposited data

How the results depend on the processing

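Under 13 alternatives the log2 fold change of *Slpi* stayed between 0.89 and 1.44 and its distance from the median of the 9 neutrophil genes between 0.84 and 1.27, with the ends set by leaving out control B256 or B267 or by leaving out dim genes. The median of the 9 was -0.03 to 0.12 when a mutant or control mouse other than B267 was left out and 0.17 without B267, and it was 0.28 when the dim genes were left out, since only 4 of the 9 then remained. The median of the 26 other neutrophil genes was -0.03 to 0.05. None of 121 values of the 9 genes under the alternatives passed the threshold (limma or the methods' t-test, lowest adjusted p = 0.964). The differences of *Ngp*, *Camp*, *Ltf*, *Elane* and *Retnlg* changed sign under 1 to 6 alternatives, and those of *S100a8*, *S100a9*, *Csf3r* and *Mmp9* under 0. The Pearson r of *Slpi* with the mean of the 9 ran from 0.42 without control B302 to 0.81 without mutant B305. Of all genes, 1 passed the adjusted threshold, and 0 did with the methods' t-test, where 619 had an unadjusted p under 0.05. Leaving out 1 mouse gave 0 to 1, with 0 for each of B253, B304, B305, B256 and B267. Added after the data were seen, values within mice B253, B256 and B267 were 0.84 for *Slpi*, 0.12 for the median of the 9 and -0.045 for the median of the 26, and within B302, B304 and B305 they were 1.40, 0.11 and 0.02. With this series as a block *Slpi* differed by 1.12 and the median of the 9 by 0.09. No paired analysis was possible because neither the labels nor the methods pair these mice by litter. The number of arrays and the low signal of 5 of the 9 genes limit what can be seen.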
